A study of Mus musculus with 13 samples.

Results

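The genes described here are 43 genes of the cell cycle and of DNA replication, measured in common lymphoid progenitors (CLPs) from mouse bone marrow. They were chosen by name, with earlier results of these data known. Each of the 43 symbols matched 1 of the 24972 genes in both deposited tables. Of the 43 genes, 20 act in S phase and DNA replication and 22 in G2 and M phase, and Stmn1, which encodes the microtubule-destabilizing protein stathmin, was kept apart from both. The division into phases follows the textbook role of each gene and used no value. CLPs were sorted as DAPI-/Lin-/Sca1Lo/cKitLo/CD127+/CD135+ cells from adult C57BL/6 mice of 6 to 12 weeks, male and female, and 3′ RNA-Seq gave 1 library for each of 5 WT, 5 Notch1+/-, and 3 Notch1+/dTAD mice. Notch1 encodes a receptor that lymphoid progenitors use when they turn to the T lineage. Notch1+/- mice have 1 functional Notch1 allele, and Notch1+/dTAD mice have 1 normal allele and 1 whose product lacks the transactivation domain. Both changes are in the germline and are present in all cells of the mouse, not in CLPs alone. The libraries were made from low RNA input, and TPM, transcript abundance scaled to the same total in every library, is the unit of every level below.

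A cell that enters the cycle first loads the MCM helicase onto its replication origins, then copies its DNA in S phase with a clamp, primase, nuclease, and ligase while enzymes of nucleotide synthesis supply precursors. In G2 and M phase, Cdk1 with its cyclins, Plk1, and the Aurora kinases drive chromosome condensation and spindle assembly, and the anaphase-promoting complex ends mitosis. E2F factors act on many S phase promoters, whereas the promoters of many G2 and M phase genes hold a CHR element (cell cycle genes homology region) and CCAAT boxes. Lymphoid progenitors in the marrow include many dividing cells, so transcripts of both phases are usual in them.

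The TPM of each library summed to 1000000, and read counts were not used here, so the depth behind a value is unknown. WT libraries held 3179 to 3855 genes at 1 TPM or more, Notch1+/- libraries 2818 to 4736, and Notch1+/dTAD libraries 3984 to 4663. Of 8 CLP genes outside the sorting gate, Dntt and Ly6d, genes of lymphoid priming, and Cd93 were above 0 in every library. Rag2 was listed at 0 in 7 libraries, Tcf3 in 3, Rag1 in 2, and Ptprc and Lmo4 in 1 each. Il7r, which encodes CD127, was listed at 0 in Notch1+/- library 6, where the 4 genes of the sorting gate (Il7r, Flt3, Kit, and Ly6a) summed to 5.21 TPM, against 155 to 810 TPM in the other libraries. Single gate genes were missing elsewhere too, since Ly6a was listed at 0 in 8 libraries and Kit in 5. Of 10 erythroid and megakaryocyte genes, 9 were listed at 0 in all 13 libraries, and the sum reached at most 17.6 TPM. The 10 B lineage genes summed to 159 to 1866 TPM in WT, 154 to 2043 in Notch1+/-, and 117 to 1827 in Notch1+/dTAD libraries, with Ms4a1 at 0 throughout. The 10 myeloid genes summed to 436 to 2067, 212 to 1257, and 272 to 1773 TPM in these genotypes, with Ms4a3 and Fcgr3 at 0 throughout. Of the 8 T and NK genes in the tables, 5 were listed at 0 in every library, and the sum was highest in WT library 10, at 1309 TPM. In bulk libraries such as these, fewer cycling cells and less cell cycle RNA per cell cannot be told apart.

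The promoters show how the phases differ in sequence, a feature that the choice of genes did not use. RefSeq promoter windows on GRCm38.p6, from 250 bases before to 50 bases after each start, matched 37 of the 43 genes and gave 42 windows. Of these, 23 were for 18 S phase genes and 19 for 19 G2 and M phase genes. Lig1, Fen1, Mcm7, and Uhrf1 had multiple windows, so the counts below are of windows and not of genes. The missing genes were Mcm4, Gins2, Ccna2, Aurkb, Tpx2, and Stmn1. Letters of an E2F site (TTTGGCGC, TTTCGCGC, TTTCCCGC, or TTTGCCGC), of a CHR (TTTGAA or TTCGAA), and of a CCAAT box (CCAAT) were searched on both strands, and no letters of these kinds are contained in one another. E2F letters were present in 8 of the 23 S phase windows, or 34.8%, in 2 of the 19 G2 and M phase windows, or 10.5%, and in 2.26% of all 32851 promoter windows. CHR letters were present in 17.4% of S phase and 78.9% of G2 and M phase windows, against 19.2% of all windows. A CHR and a CCAAT box occurred in the same window for 3 S phase windows, or 13.0%, and for 15 G2 and M phase windows, or 78.9%, against 7.52% of all. CCAAT letters by themselves were frequent everywhere, in 56.5%, 89.5%, and 37.4% of these windows. A match of this kind is a description of the letters and does not show that a factor binds there.

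Of the windows, 5 are printed, each as the 150 bases before the start on the coding strand, with matched letters in capitals. Mcm6 and Top2a are shown because their windows hold several matches of the S phase and of the G2 and M phase letters. Mcm3, Plk1, and Ckap2l are among the genes that lacked overlap between genotypes below. Asf1b and Cenpm lacked it too, and their windows are not printed. The windows lie at chr1:20820313-20820462 (-) for Mcm3, chr1:128359706-128359855 (-) for Mcm6, chr7:122159285-122159434 (+) for Plk1, chr2:129297213-129297362 (-) for Ckap2l, and chr11:99024190-99024339 (-) for Top2a, and the sign in parentheses is the strand.
Mcm6: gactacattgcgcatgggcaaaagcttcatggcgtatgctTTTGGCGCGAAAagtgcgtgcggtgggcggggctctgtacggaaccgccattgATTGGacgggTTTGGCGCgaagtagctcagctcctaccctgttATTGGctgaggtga
Mcm3: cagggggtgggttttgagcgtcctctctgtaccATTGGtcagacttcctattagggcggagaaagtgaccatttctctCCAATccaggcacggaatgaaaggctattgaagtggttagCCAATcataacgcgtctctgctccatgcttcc
Plk1: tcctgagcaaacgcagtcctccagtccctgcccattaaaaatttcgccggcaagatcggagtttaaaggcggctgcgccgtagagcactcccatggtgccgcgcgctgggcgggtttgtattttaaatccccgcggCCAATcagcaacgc
Ckap2l: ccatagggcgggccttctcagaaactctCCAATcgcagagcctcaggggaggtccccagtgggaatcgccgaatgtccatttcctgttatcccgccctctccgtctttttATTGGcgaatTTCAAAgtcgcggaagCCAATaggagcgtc
Top2a: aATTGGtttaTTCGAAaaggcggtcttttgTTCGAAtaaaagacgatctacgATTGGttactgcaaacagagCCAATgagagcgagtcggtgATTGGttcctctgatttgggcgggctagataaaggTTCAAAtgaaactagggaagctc
In the Mcm6 window, E2F letters matched 3 times, of which 2 overlap on opposite strands, and CCAAT boxes stand 57 and 14 bases before the start. The Mcm3 window holds 3 CCAAT boxes, and its E2F letters lie 19 and 38 bases after the start, outside the bases printed. Plk1 has a CCAAT box 14 bases before the start and CHR letters 30 bases after it. Ckap2l has CCAAT boxes at 122, 40, and 14 bases and CHR letters at 30 bases before the start. Top2a has 4 CCAAT boxes and 3 CHR matches in these bases alone. Of the windows not printed, that of the S phase gene Asf1b holds no E2F letters, CHR letters 14 bases before the start, and 4 CCAAT boxes. That of the G2 and M phase gene Cenpm holds E2F letters 71 bases and CHR letters 83 bases before the start.

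**Figure D1:**
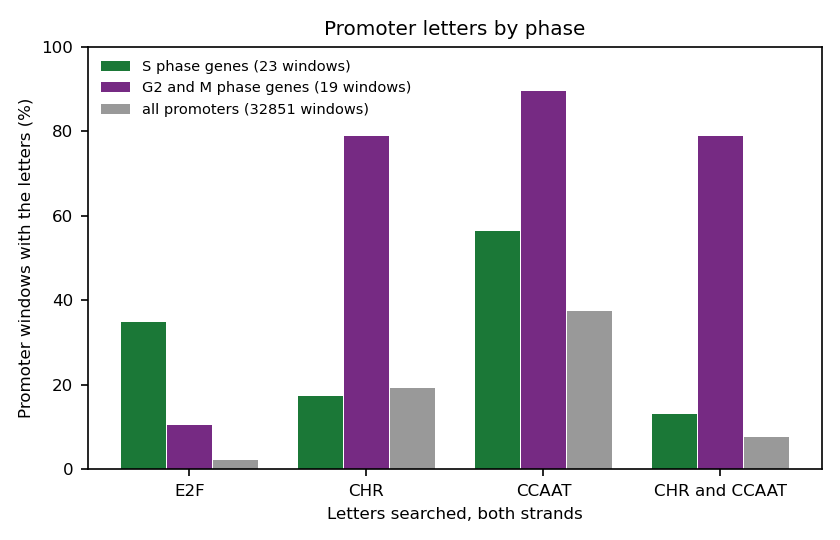
Share of RefSeq promoter windows, in percent on an axis from 0, that hold E2F, CHR, or CCAAT letters, or CHR and CCAAT letters together, for S phase genes, G2 and M phase genes, and all windows. E2F letters are present in 34.8% of S phase windows and CHR letters in 78.9% of G2 and M phase windows.

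The 43 genes were listed in far more libraries than most genes of the table, and their choice was made with earlier results known. A library held a median of 15 of the 20 S phase and 15 of the 22 G2 and M phase genes at 1 TPM or more. For the wider lists described below, the medians were 30 of 60 S phase and 31 of 56 G2 and M phase genes in the tables. At 1 TPM or more in at least 10 of the 13 libraries were 24 of the 43 genes, or 55.8%, against 6.29% of all 24972 genes and 15.5% of the 10149 genes that any library listed above 0. In all 13 libraries the number was 9 of 43, against 592 genes of the table. S phase genes passed this level in at least 10 libraries for 12 of 20 genes, and G2 and M phase genes for 11 of 22. No gene was at 0 throughout, yet 31 of the 43 were listed at 0 in at least 1 library, among them Pcna, Mcm2, and Rrm1, which every dividing cell needs. An entry of 0 is therefore given here only as listed. The 43 genes together summed to 9008 to 11269 TPM in WT, 7205 to 14915 in Notch1+/-, and 9060 to 13831 in Notch1+/dTAD libraries. TPM divides by transcript length, whereas a 3′ library gives about the same number of reads for a long and a short transcript, so the level of a long transcript such as Mki67 (10061 bases) is understated beside that of a short one such as Stmn1 (1060 bases).

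**Figure D2:**
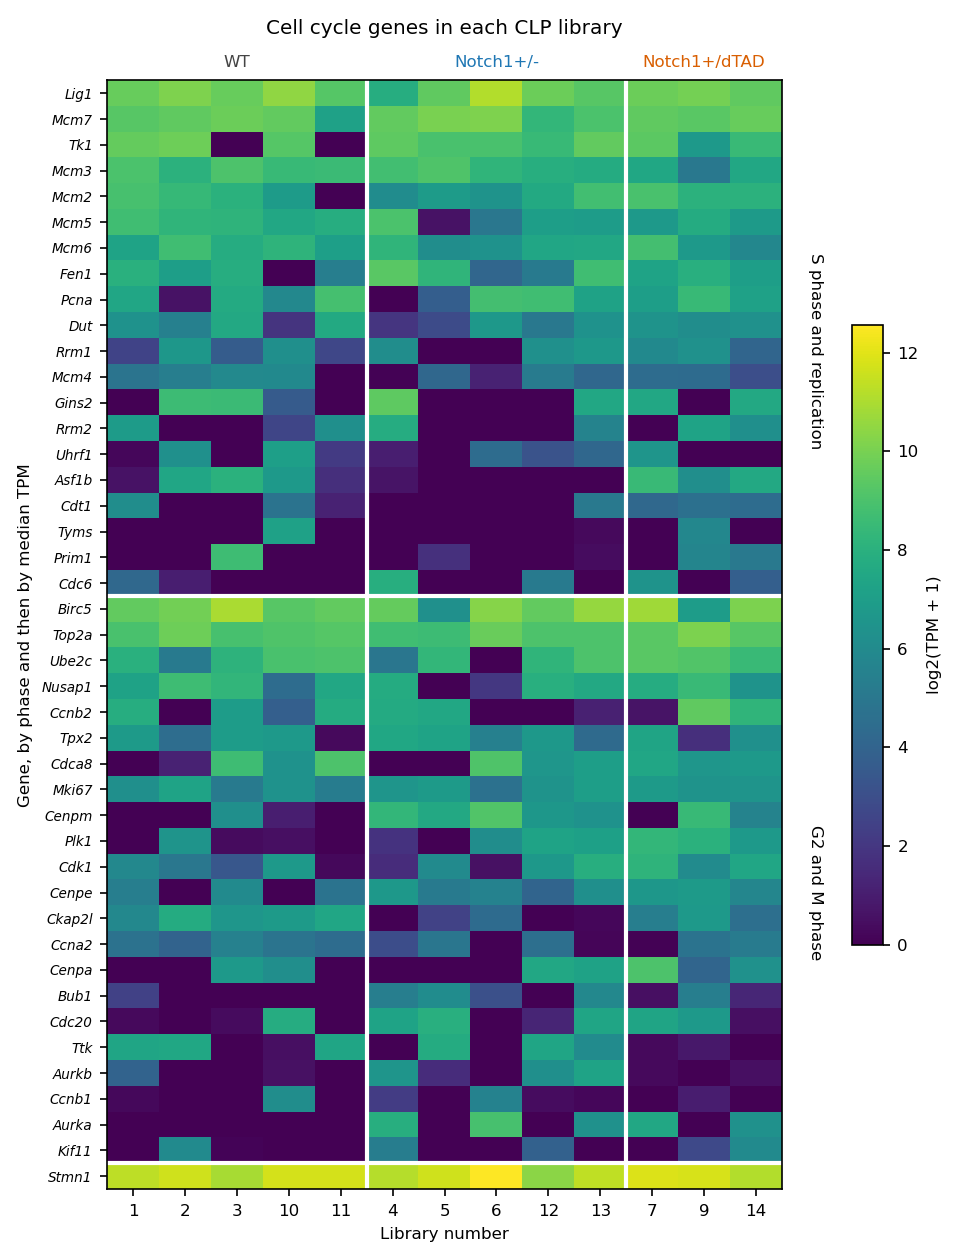
Level of each of the 43 genes, as log2(TPM + 1) by colour, in each of the 13 libraries (columns, by library number within genotype), with genes ordered by phase and then by median TPM. Lig1, Mcm7, Birc5, Top2a, and Stmn1 are above 0 in every library, whereas Tyms, at the other end, is at 0 in 10 of 13.

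Values below are given in the order of libraries 1, 2, 3, 10, and 11 for WT, 4, 5, 6, 12, and 13 for Notch1+/-, and 7, 9, and 14 for Notch1+/dTAD. The Mcm2 to Mcm7 genes encode the 6 subunits of the replicative helicase. Mcm2 was listed at 474, 337, 256, 119, and 0 TPM in WT, at 67.6, 119, 88.1, 198, and 432 TPM in Notch1+/-, and at 492, 272, and 264 TPM in Notch1+/dTAD libraries. It was at 0 in WT library 11 alone, and the genotypes overlapped. Mcm3 was listed at 515, 264, 532, 356, and 381 TPM in WT, at 427, 551, 299.8, 233, and 213 TPM in Notch1+/-, and at 177, 31.4, and 184 TPM in Notch1+/dTAD libraries. All 3 Notch1+/dTAD libraries were below each WT and each Notch1+/- library. Mcm4, with the lowest median of the 6, was listed at 27.3, 40.1, 59.5, 61.9, and 0 TPM in WT, at 0.0445, 17.4, 1.31, 36.7, and 17.6 TPM in Notch1+/-, and at 20.5, 19.96, and 7.06 TPM in Notch1+/dTAD libraries. It was at 0 in WT library 11 and below 2 TPM in Notch1+/- libraries 4 and 6. Mcm5 was listed at 412, 295, 291, 182, and 224 TPM in WT, at 505, 0.544, 30.9, 133, and 123 TPM in Notch1+/-, and at 109, 212, and 115 TPM in Notch1+/dTAD libraries. Notch1+/- libraries 5 and 6 were its lowest and Notch1+/- library 4 its highest. Mcm6 was listed at 154, 426, 215, 285, and 137 TPM in WT, at 300.3, 69.5, 82.6, 173, and 185 TPM in Notch1+/-, and at 454, 105, and 55.5 TPM in Notch1+/dTAD libraries, with overlap between all genotypes and its lowest value in Notch1+/dTAD library 14. Mcm7, with the highest median of the complex, was listed at 635, 717, 849, 739.7, and 147 TPM in WT, at 737, 1062, 1107, 319.6, and 515 TPM in Notch1+/-, and at 717, 653, and 798 TPM in Notch1+/dTAD libraries. WT library 11 was its lowest value, and the other 4 WT libraries lay between 635 and 849 TPM. The 6 genes summed to 889 to 2218 TPM in WT, 1092 to 2038 in Notch1+/-, and 1293 to 1970 in Notch1+/dTAD libraries, ranges that overlapped.

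Of the genes that act at the replication fork, Pcna, the sliding clamp of DNA polymerases, was listed at 171, 0.540, 204, 57.1, and 462 TPM in WT, at 0, 12.7, 448, 424, and 149 TPM in Notch1+/-, and at 132, 355, and 146 TPM in Notch1+/dTAD libraries. Notch1+/- library 4 listed it at 0 and WT library 2 at 0.540 TPM, although the highest libraries of these genotypes reached 448 and 462 TPM. Lig1, the ligase that joins Okazaki fragments, had the highest median of the S phase genes, 795 TPM, and was listed at 793, 1119, 795, 1452, and 599 TPM in WT, at 228, 715, 2202, 868, and 624 TPM in Notch1+/-, and at 866, 967, and 723 TPM in Notch1+/dTAD libraries. Its extremes were both in Notch1+/- mice, in libraries 4 and 6, and it held a median of 21.3% of the summed TPM of the S phase genes. Fen1, the nuclease that trims the flaps of those fragments, was listed at 249.6, 129, 225, 0, and 40.0 TPM in WT, at 647, 300.2, 16.7, 33.8, and 423 TPM in Notch1+/-, and at 154, 242, and 129.8 TPM in Notch1+/dTAD libraries. WT library 10 listed it at 0, and the 3 Notch1+/dTAD libraries lay within the range of the others. Asf1b, a chaperone that hands histones to newly made DNA, was listed at 0.531, 170.5, 259.7, 105, and 2.23 TPM in WT, at 0.559, 0, 0, 0, and 0 TPM in Notch1+/-, and at 365, 72.6, and 192 TPM in Notch1+/dTAD libraries. Notch1+/- libraries were at or near 0 in every case, and each Notch1+/dTAD library was above each of them, whereas the WT libraries covered both levels.

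Among enzymes of nucleotide synthesis, Tk1, thymidine kinase, was the most abundant and was listed at 786, 887, 0, 616, and 0 TPM in WT, at 699, 504, 496, 359, and 739 TPM in Notch1+/-, and at 668, 105, and 362 TPM in Notch1+/dTAD libraries. It was at 0 in WT libraries 3 and 11 and at 105 TPM or more in each of the other 11 libraries. Rrm1, the large subunit of ribonucleotide reductase, was listed at 4.86, 98.0, 11.5, 75.1, and 5.45 TPM in WT, at 70.8, 0, 0, 77.6, and 102 TPM in Notch1+/-, and at 61.7, 81.1, and 16.3 TPM in Notch1+/dTAD libraries. Its 2 entries of 0 were in Notch1+/- libraries 5 and 6. Dut, the dUTPase that keeps uracil out of DNA, was listed at 84.6, 43.6, 189, 2.69, and 201 TPM in WT, at 2.86, 6.34, 104, 31.6, and 84.0 TPM in Notch1+/-, and at 88.2, 71.3, and 80.2 TPM in Notch1+/dTAD libraries. It was above 0 in every library, and the Notch1+/dTAD libraries, at 71.3 to 88.2 TPM, stood closer together than those of the other genotypes. The other 7 S phase genes (Gins2, Rrm2, Uhrf1, Cdt1, Tyms, Prim1, and Cdc6) reached 1 TPM in 2 to 8 libraries, with highest values from 71.7 TPM for Cdt1 to 689 TPM for Gins2. Cdc6 and Cdt1 load the helicase, Gins2 is part of its GINS cofactor, Prim1 is a primase subunit, Rrm2 is the small subunit of ribonucleotide reductase, Tyms is thymidylate synthase, and Uhrf1 maintains DNA methylation. Tyms was the most sparsely listed of all 43, at 0 in 10 libraries.

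Of the G2 and M phase genes, Mki67, Top2a, and Birc5 were at 1 TPM or more in all 13 libraries. Mki67, the nuclear antigen used to mark proliferating cells, was listed at 76.1, 156, 34.02, 84.9, and 37.3 TPM in WT, at 93.7, 113, 25.2, 86.1, and 131 TPM in Notch1+/-, and at 115, 85.4, and 89.1 TPM in Notch1+/dTAD libraries. Notch1+/- library 6 was lowest, and the Notch1+/dTAD libraries lay inside the range of the WT and Notch1+/- libraries. Top2a, the topoisomerase that untangles replicated chromosomes, was listed at 497, 899, 486, 553, and 614 TPM in WT, at 417, 393, 826, 525, and 525 TPM in Notch1+/-, and at 659, 1089, and 637 TPM in Notch1+/dTAD libraries. It varied less than 3-fold from the lowest to the highest library and overlapped in all genotypes. Ccna2, the cyclin of S phase and G2, was listed at 25.4, 15.1, 45.6, 27.8, and 20.9 TPM in WT, at 6.94, 29.4, 0, 22.8, and 0.137 TPM in Notch1+/-, and at 0.0600, 26.7, and 36.1 TPM in Notch1+/dTAD libraries. Cdk1, the kinase that starts mitosis, was listed at 58.3, 30.9, 9.55, 109.7, and 0.224 TPM in WT, at 2.02, 62.6, 0.468, 102, and 235 TPM in Notch1+/-, and at 293, 65.5, and 173 TPM in Notch1+/dTAD libraries. Both were low or near 0 in a few libraries of more than 1 genotype, and for Cdk1 these were WT library 11 and Notch1+/- libraries 4 and 6. Ccnb1, a mitotic partner of Cdk1, was listed at 0.203, 0, 0, 69.9, and 0 TPM in WT, at 3.73, 0, 46.1, 0.317, and 0.147 TPM in Notch1+/-, and at 0, 1.02, and 0 TPM in Notch1+/dTAD libraries. It passed 1 TPM in 4 libraries, and pseudogenes that share 18.5% of the 75-base words at its transcript end (Ccnb1-ps, Gm12856, and Gm8416) make its assignment uncertain.

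The chromosomal passenger complex corrects faulty chromosome attachments. Its subunit Birc5, or survivin, had the highest median of the G2 and M phase genes, 764 TPM, and was listed at 741, 963, 2027, 638, and 749 TPM in WT, at 764, 79.4, 1263, 744, and 1507 TPM in Notch1+/-, and at 1749.7, 121, and 1086 TPM in Notch1+/dTAD libraries. The low values in Notch1+/- library 5 and Notch1+/dTAD library 9 apart, it was at 638 TPM or more, and it held a median of 30.6% of the summed TPM of its phase. Cdca8, or borealin, of the same complex was listed at 0, 1.32, 401, 82.6, and 538 TPM in WT, at 0, 0, 558, 95.4, and 131 TPM in Notch1+/-, and at 175, 96.7, and 110.3 TPM in Notch1+/dTAD libraries. It was at 0 in 1 WT and 2 Notch1+/- libraries, and the Notch1+/dTAD libraries lay between 96.7 and 175 TPM. Aurkb, the kinase of the complex, was listed at 15.0, 0, 0, 0.457, and 0 TPM in WT, at 91.5, 2.04, 0, 74.9, and 156 TPM in Notch1+/-, and at 0.246, 0, and 0.443 TPM in Notch1+/dTAD libraries. No Notch1+/dTAD library reached 1 TPM, whereas 4 of 5 Notch1+/- libraries did, and Notch1+/- library 6 at 0 made the genotypes overlap. Plk1, a kinase of mitotic entry and spindle assembly, was listed at 0, 89.0, 0.275, 0.424, and 0 TPM in WT, at 2.57, 0, 70.8, 157, and 139 TPM in Notch1+/-, and at 321, 261, and 105 TPM in Notch1+/dTAD libraries. WT libraries were near 0 except library 2, and each Notch1+/dTAD library was above each WT library. Bub1, a kinase of the spindle checkpoint, was listed at 4.34, 0, 0, 0, and 0 TPM in WT, at 41.2, 68.9, 7.52, 0, and 58.1 TPM in Notch1+/-, and at 0.451, 40.2, and 1.56 TPM in Notch1+/dTAD libraries. Of the WT libraries 4 were at 0, and of the Notch1+/- libraries 1.

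Spindle and centromere genes came next. Tpx2, which activates Aurora A on spindle microtubules, was listed at 116, 21.5, 123, 111, and 0.237 TPM in WT, at 181, 158, 42.7, 104, and 19.0 TPM in Notch1+/-, and at 161, 2.26, and 76.9 TPM in Notch1+/dTAD libraries. Nusap1, which bundles spindle microtubules, was listed at 149, 409, 308, 21.1, and 185 TPM in WT, at 209, 0, 3.15, 244, and 194 TPM in Notch1+/-, and at 216, 363, and 86.4 TPM in Notch1+/dTAD libraries. Cenpe, a kinesin that moves chromosomes to the spindle equator, was listed at 39.9, 0, 63.0, 0, and 26.9 TPM in WT, at 102, 33.4, 46.2, 15.6, and 76.5 TPM in Notch1+/-, and at 99.9, 115, and 53.8 TPM in Notch1+/dTAD libraries. The values of these 3 genes overlapped between all genotypes. Cenpm, a protein of the constitutive centromere network, was listed at 0, 0, 74.8, 1.06, and 0 TPM in WT, at 315, 189, 562, 101, and 85.0 TPM in Notch1+/-, and at 0, 358, and 47.8 TPM in Notch1+/dTAD libraries. Each Notch1+/- library was above each WT library. Ckap2l, a protein of the mitotic spindle, was listed at 56.9, 213, 96.1, 116, and 171 TPM in WT, at 0, 4.61, 19.8, 0, and 0.159 TPM in Notch1+/-, and at 41.0, 109, and 23.1 TPM in Notch1+/dTAD libraries. Each Notch1+/- library was below each WT and each Notch1+/dTAD library. Ube2c, the ubiquitin-conjugating enzyme of the anaphase-promoting complex, was listed at 247, 33.8, 277, 489, and 529 TPM in WT, at 29.6, 313, 0, 298, and 537 TPM in Notch1+/-, and at 663, 566, and 368 TPM in Notch1+/dTAD libraries. Its 3 lowest values were in Notch1+/- libraries 6 and 4 and WT library 2. The other 6 G2 and M phase genes reached 1 TPM in 5 to 9 libraries, with highest values from 64.1 TPM for Kif11 to 731 TPM for Ccnb2. They are Ccnb2, a mitotic cyclin, Cenpa, the centromeric histone, Cdc20, an activator of the anaphase-promoting complex, Ttk, a checkpoint kinase, Aurka, the spindle pole kinase, and Kif11, a spindle motor.

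Stmn1 was the most abundant of the 43 genes and was listed at 2507, 3201, 1965, 3408, and 3475 TPM in WT, at 2303, 3238, 6068, 1338, and 2675 TPM in Notch1+/-, and at 3771, 3627, and 2241 TPM in Notch1+/dTAD libraries. It held 18.2% to 40.7% of the summed TPM of the 43 genes, and its highest and lowest values were both in Notch1+/- mice, in libraries 6 and 12. The small RNA gene Gm23634 overlaps it on the same strand, and Gm11223 shares 17.9% of the 75-base words at its transcript end. Overlapping genes on the same strand were annotated also for Mcm7 (Mir106b, Mir25, and Mir93), Rrm1, Cdt1, Top2a, Tpx2, Nusap1, and Kif11. Whether these overlaps lie at the transcript end or alter the TPM was not tested.

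The balance of the phases differed among libraries. The level of a phase was taken as the mean log2(TPM + 1) of all its genes in a library, with genes at 0 included, and it is given as a description without a test. The S phase level was 5.49, 5.56, 5.51, 5.62, and 3.79 in WT, 5.16, 3.61, 4.08, 4.77, and 5.77 in Notch1+/-, and 6.26, 5.83, and 5.92 in Notch1+/dTAD libraries. The G2 and M phase level was 4.13, 3.79, 4.52, 4.39, and 3.74 in WT, 4.94, 4.29, 3.85, 5.03, and 5.65 in Notch1+/-, and 5.15, 5.49, and 5.39 in Notch1+/dTAD libraries. Every Notch1+/dTAD library was above every WT library in both levels, and Notch1+/- library 13 was above all of them in the G2 and M phase level. The S phase level minus the G2 and M phase level was 1.08 ± 0.64 (SD, n = 5) in WT, -0.08 ± 0.39 (SD, n = 5) in Notch1+/-, and 0.66 ± 0.40 (SD, n = 3) in Notch1+/dTAD libraries. In 4 WT libraries it was 1.00 to 1.78, above all 5 Notch1+/- libraries (-0.68 to 0.23), and in WT library 11, where the S phase level was low, it was 0.05. The difference of Notch1+/- from WT was -1.16, and within library numbers 1 to 9 and 10 to 14 it was -1.46 and -0.72. Numbers 10 to 14 hold only 2 libraries of each genotype, which overlapped. The 2 ranges differed in their parts. In numbers 1 to 9 the S phase level differed by -1.24 and the G2 and M phase level by 0.22, and in numbers 10 to 14 by 0.56 and 1.28.

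Summed TPM, which weights the abundant genes, did not show the same order. S phase genes summed to 4514, 4992, 4677, 4377, and 2278 TPM in WT, 4825, 3361, 4898, 2929.8, and 3895 TPM in Notch1+/-, and 4687, 3473, and 3404 TPM in Notch1+/dTAD libraries. G2 and M phase genes summed to 2421, 3076, 4173, 2613, and 3255 TPM in WT, 2888, 2084, 3949, 2937, and 4260 TPM in Notch1+/-, and 5373, 4161, and 3415 TPM in Notch1+/dTAD libraries. The ratio of the S phase to the G2 and M phase sum was 0.700 to 1.86 in WT, 0.914 to 1.67 in Notch1+/-, and 0.834 to 0.997 in Notch1+/dTAD libraries. On a log2 scale the mean ratio of Notch1+/- differed from WT by -0.08, and that of Notch1+/dTAD from Notch1+/- by -0.48, against 0.73 by the mean of log2 values. The mean of log2 values gives a sparsely listed gene such as Cdc6 the same weight as Lig1 or Mcm7, whereas Lig1, Mcm7, and Tk1 hold medians of 21.3%, 15.3%, and 14.1% of the S phase sum.

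**Figure D3:**
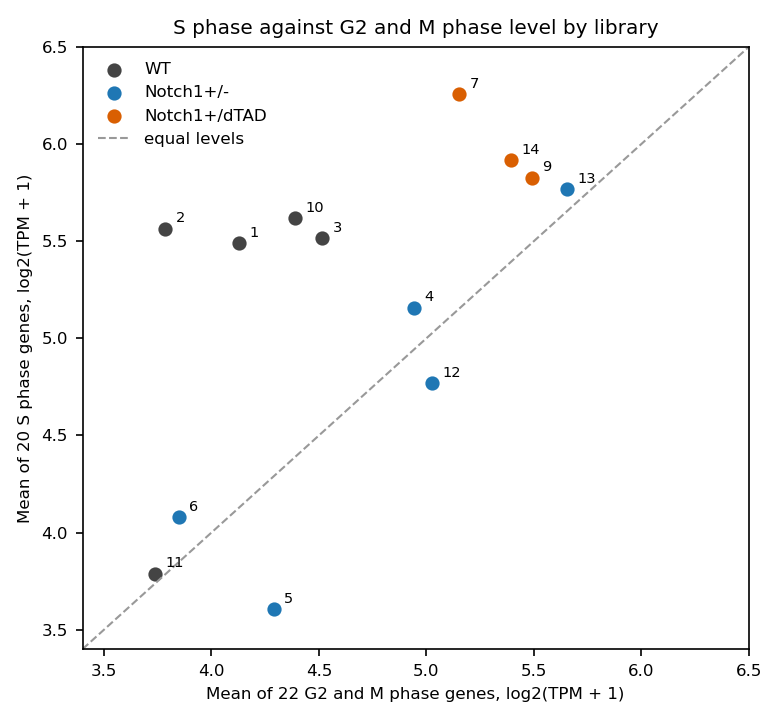
Mean log2(TPM + 1) of the 20 S phase genes (vertical) against that of the 22 G2 and M phase genes (horizontal), 1 point per library with its library number, coloured by genotype, with a dashed line of equal levels. WT libraries 1, 2, 3, and 10 lie above the line by 1.00 to 1.78, WT library 11 lies above it by 0.05, the Notch1+/- libraries differ from it by -0.68 to 0.23, and the Notch1+/dTAD libraries are at the upper right.

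Notch1+/dTAD CLPs were compared with WT CLPs to ask whether cell cycle genes differ when 1 Notch1 product lacks its transactivation domain. Each WT library serves both comparisons with WT, and the comparison of the mutants uses the mutant libraries of those 2 again. The values of the 3 comparisons are therefore not independent. Tests used limma on log2(TPM + 1), adjusted by Benjamini-Hochberg over all genes tested. Each library is 1 mouse, so the p-values rest on the spread between mice, which includes that of library preparation. Of the 43 genes 39 were tested, and Tyms, Ccnb1, Aurka, and Aurkb were below 1 TPM in too many libraries. None of the 39 had an adjusted p under 0.05 in limma, as for all 4737 genes tested (0.0%). At an unadjusted p under 0.05 there were 2 (all genes, 5.0%), and 2 had no overlap between the genotypes (all genes, 3.12%), the same 2 genes. The log2 fold change was higher in Notch1+/dTAD CLPs for 29 of the 39, or 74.4% (all genes, 61.8%), with a median of 1.13 against 0.47 over all genes tested. By phase, 13 of 19 S phase and 15 of 19 G2 and M phase genes had higher values. After quantile normalization the median of all genes was -0.01, and 27 of 38 tested cell cycle genes had higher values, with a median of 0.80. The share of all genes with higher values after this normalization was not counted. Each Notch1+/dTAD library also held more genes at 1 TPM or more than each WT library, and the part of this excess in the differences was not tested. Since 3 libraries at 1 TPM sufficed, a gene could enter the test through the Notch1+/dTAD libraries alone. Plk1, described next, reached 1 TPM in 3 Notch1+/dTAD libraries and 1 WT library. The counts at an unadjusted p, without overlap, and with higher values, and the medians, are therefore given only as a description.

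Plk1 (ENSMUSG00000030867.7, chromosome 7, 122159439 to 122169873 on GRCm38, 10 exons) had the larger difference of the 2 genes. It had 105 to 321 TPM in Notch1+/dTAD and 0 to 89.0 TPM in WT libraries (log2 fold change 6.23, SE 1.95, limma adjusted p = 0.588), with an unadjusted p of 0.00670. Its fold change ranged from 3.76 to 8.19 over 18 alternative settings, with limma adjusted p-values of 0.340 to 0.922. Mcm3 (ENSMUSG00000041859.10, chromosome 1, 20802968 to 20820312, 17 exons) was lower in Notch1+/dTAD CLPs (log2 fold change -1.96, SE 0.84, limma adjusted p = 0.943), with an unadjusted p of 0.0348. Without Notch1+/dTAD library 9, where it had 31.4 TPM, the fold change was -1.13. The other helicase genes had log2 fold changes of 1.92 for Mcm2, -0.47 for Mcm4, -0.96 for Mcm5, -0.68 for Mcm6, and 0.44 for Mcm7. Cdk1, at 65.5 to 293 TPM in Notch1+/dTAD and 0.224 to 109.7 TPM in WT libraries, overlapped (log2 fold change 2.96, SE 1.63, limma adjusted p = 0.952). The proliferation marker Mki67 (log2 fold change 0.52, SE 1.11, limma adjusted p = 0.996) and Top2a (log2 fold change 0.38, SE 0.52, limma adjusted p = 0.996) differed by less than their errors. Ttk, named here after its values were seen, had the most negative fold change of the 39 (log2 fold change -4.19, SE 2.27, limma adjusted p = 0.952), with 0.766 TPM or less in the Notch1+/dTAD libraries and 0 to 180.0 TPM in WT libraries.

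**Figure D4:**
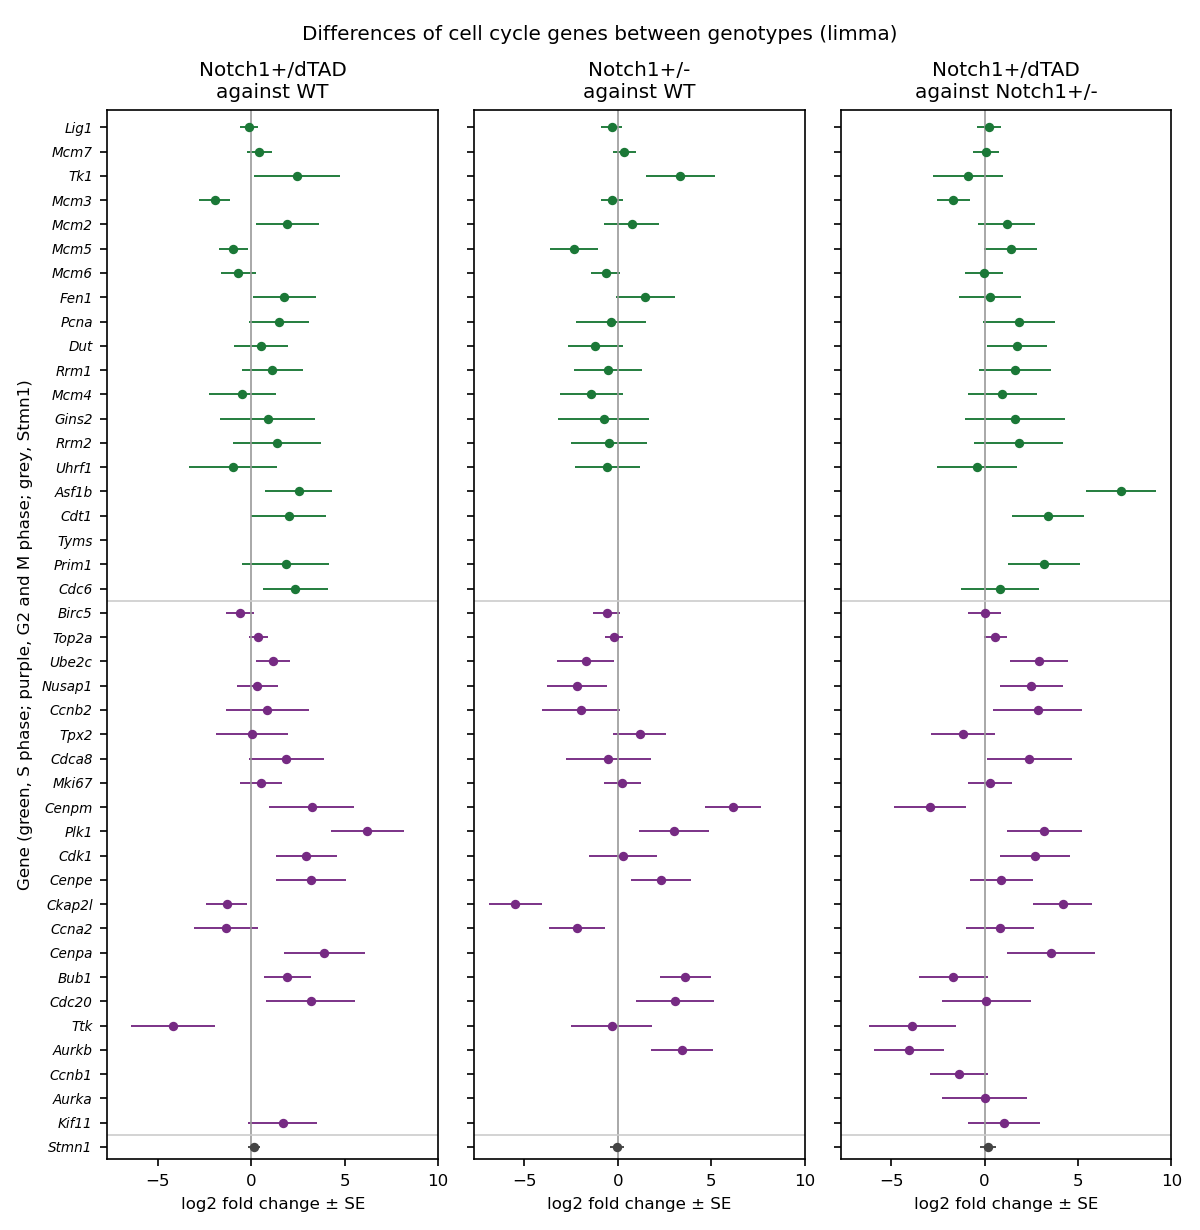
Log2 fold change ± SE (limma, log2(TPM + 1) scale) of each tested gene in the 3 comparisons, with S phase genes in green, G2 and M phase genes in purple, and Stmn1 in grey, and no point where a gene was not tested. In Notch1+/dTAD against WT, 29 of 39 points lie right of 0, in Notch1+/- against WT 13 of 34, and in Notch1+/dTAD against Notch1+/- 31 of 42.

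Between Notch1+/- and WT CLPs, which asks about the loss of 1 allele, 34 of the 43 genes were tested. Left out were Tyms, Prim1, Cdc6, Cdt1, Asf1b, Ccnb1, Aurka, Kif11, and Cenpa. No cell cycle gene passed an adjusted p of 0.05 in limma (all 3178 genes, 0.0%). At an unadjusted p under 0.05 there were 3 (all genes, 5.35%), of which 2 had no overlap between the genotypes (all genes, 0.787%). Higher in Notch1+/- CLPs were 13 of the 34, or 38.2% (all genes, 51.4%), and the median log2 fold change was -0.33 against 0.06 over all genes tested. S phase genes had 4 higher and 11 lower values with a median of -0.47, and G2 and M phase genes 9 and 9 with a median of 0.02. With 5 libraries at 1 TPM sufficient, a gene could enter through the libraries of 1 genotype alone. Cenpm reached 1 TPM in 5 Notch1+/- and 2 WT libraries, and Ckap2l in 5 WT and 2 Notch1+/- libraries. All counts and medians of this comparison, those without overlap included, are therefore only a description.

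The 3 genes were Cenpm, Ckap2l, and Bub1. Cenpm (ENSMUSG00000068101.11, chromosome 15, 82233779 to 82244748, 6 exons) had 85.0 to 562 TPM in Notch1+/- libraries and 74.8 TPM or less in WT libraries (log2 fold change 6.16, SE 1.52, limma adjusted p = 0.507). Its fold change ranged from 3.73 to 8.32 over 20 alternative settings, with limma adjusted p-values of 0.215 to 0.853. Ckap2l (ENSMUSG00000048327.6, chromosome 2, 129268210 to 129297212, 9 exons) had at most 19.8 TPM in Notch1+/- and at least 56.9 TPM in WT libraries (log2 fold change -5.48, SE 1.42, limma adjusted p = 0.507). Its fold change ranged from -7.30 to -3.26 over 20 alternative settings, with limma adjusted p-values of 0.130 to 0.862. Gm14024 overlaps Ckap2l on the opposite strand. Bub1 had overlapping values, since library 12 of the Notch1+/- mice was at 0 (log2 fold change 3.62, SE 1.35, limma adjusted p = 0.82). Without Notch1+/- library 6, whose sorting gate genes were nearly absent, the fold changes were 5.79 for Cenpm and -6.22 for Ckap2l. The widest difference of the S phase genes in favour of WT was that of Mcm5 (log2 fold change -2.36, SE 1.30, limma adjusted p = 0.96), and in favour of Notch1+/- that of Tk1 (log2 fold change 3.35, SE 1.85, limma adjusted p = 0.961), and neither passed the test. Mki67 (log2 fold change 0.25, SE 0.97, limma adjusted p = 0.993), Top2a (log2 fold change -0.20, SE 0.49, limma adjusted p = 0.993), and Stmn1 (log2 fold change -0.04, SE 0.37, limma adjusted p = 0.993) differed by less than their errors.

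The 2 mutants were compared with each other in a model of all 13 libraries, in which 42 of the 43 genes were tested and Tyms was not. No cell cycle gene had an adjusted p under 0.05 in limma (all 6281 genes, 0.0%). At an unadjusted p under 0.05 there were 3 (all genes, 5.33%), and 3 lacked overlap (all genes, 3.06%). The fold change favoured Notch1+/dTAD CLPs in 31 of 42, or 73.8% (all genes, 58.9%), with a median of 0.86 against 0.35 over all genes tested. For S phase genes the count was 15 of 19, with a median of 1.19, and for G2 and M phase genes 15 of 22, with a median of 0.70. After quantile normalization 27 of 42 were higher, with a median of 0.52 and a median of 0.04 over all genes. The share of all genes higher after it was not counted. Here too 3 libraries at 1 TPM sufficed, so a gene could be tested through the Notch1+/dTAD libraries alone, and these counts and medians are only a description.

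Asf1b (ENSMUSG00000005470.8, chromosome 8, 83955507 to 83970197, 4 exons) had 72.6 to 365 TPM in Notch1+/dTAD libraries and at most 0.559 TPM in Notch1+/- libraries (log2 fold change 7.31, SE 1.89, limma adjusted p = 0.635). Its fold change ranged from 4.19 to 10.20 over 22 alternative settings, with limma adjusted p-values of 0.232 to 0.918. Ckap2l had 23.1 to 109 TPM in Notch1+/dTAD libraries, all above the Notch1+/- libraries and partly below the WT libraries (log2 fold change 4.18, SE 1.59, limma adjusted p = 0.932). Aurkb was lower in Notch1+/dTAD CLPs without a clean separation (log2 fold change -4.05, SE 1.88, limma adjusted p = 0.932). Mcm3 was below every Notch1+/- library in each Notch1+/dTAD library, at an unadjusted p of 0.0665 (log2 fold change -1.66, SE 0.86, limma adjusted p = 0.941). Without Notch1+/dTAD library 9 its fold change was -0.84. The mean log2(TPM + 1) over all 43 genes was 4.79 ± 0.49 (SD, n = 5) in WT, 4.87 ± 0.72 (SD, n = 5) in Notch1+/-, and 5.80 ± 0.03 (SD, n = 3) in Notch1+/dTAD libraries. Notch1+/- libraries spread from 4.14 to 5.84 and thus covered the level of the Notch1+/dTAD libraries. This mean includes genes at 0, and the part of the number of genes listed in it was not tested.

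**Figure D5:**
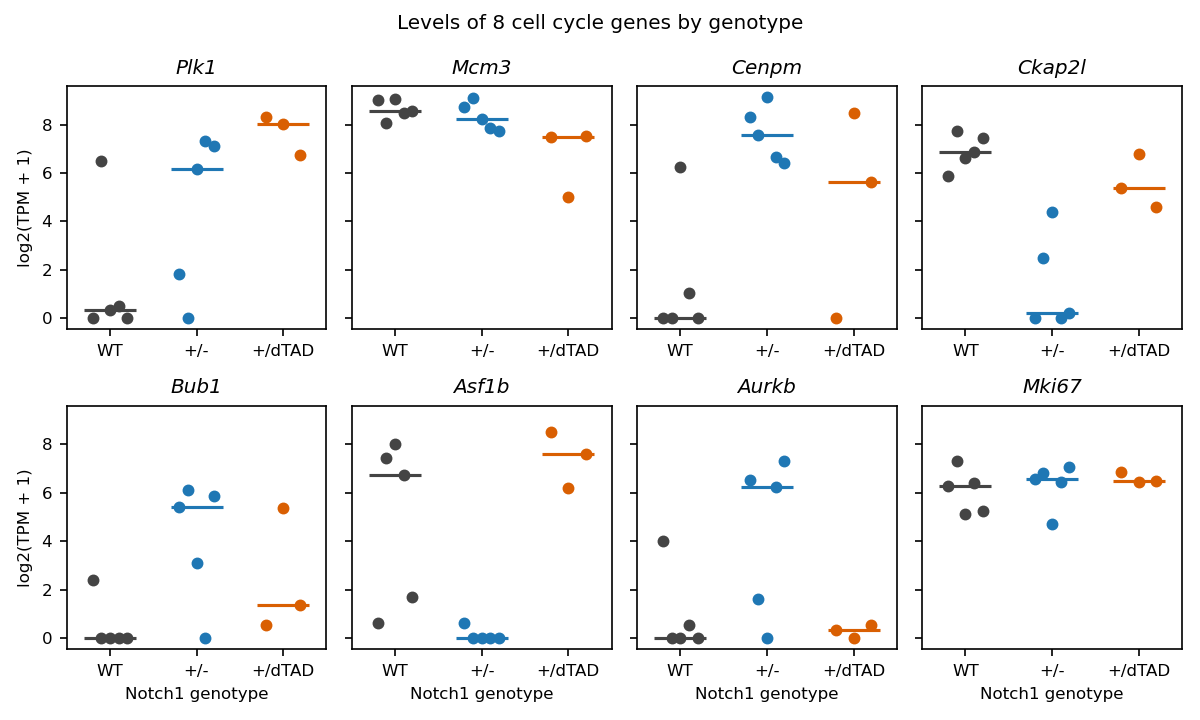
Level of 8 genes as log2(TPM + 1), 1 point per library, by Notch1 genotype, with the median of each genotype as a horizontal line. Plk1 separates Notch1+/dTAD from WT, Cenpm and Ckap2l separate Notch1+/- from WT, Asf1b and Ckap2l separate the mutants, Mcm3 is lowest in Notch1+/dTAD, and Mki67 overlaps throughout.

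Other genes of the same processes were counted in 2 wider lists, 60 S phase genes and 57 G2 and M phase genes outside the 43, of which Sgol1 was not in the tables. In Notch1+/dTAD against WT CLPs, 24 of 41 tested S phase genes, or 58.5%, had a higher fold change (all genes, 61.8%). Of the tested G2 and M phase genes 38 of 47 did, or 80.9%. The medians were 0.49 and 1.20 against 0.47 over all genes. In Notch1+/- against WT CLPs the counts were 13 of 28 (46.4%) and 18 of 32 (56.2%), against 51.4% of all genes. Their medians were -0.18 and 0.10 against 0.06. In Notch1+/dTAD against Notch1+/- CLPs the counts were 33 of 48 (68.8%) and 40 of 50 (80.0%), against 58.9% of all genes. Their medians were 0.90 and 1.25 against 0.35. A gene could enter each of these tests through the libraries of 1 genotype alone, and the counts and medians of both lists describe the tested genes without bearing on the 43. No gene of these lists had an adjusted p under 0.05 in limma. Kifc1, a minus-end kinesin of the spindle, was listed at 0, 0, 0, 0.406, and 2.73 TPM in WT, at 0.673, 0, 0, 87.5, and 2.69 TPM in Notch1+/-, and at 63.7, 229, and 61.3 TPM in Notch1+/dTAD libraries. Each Notch1+/dTAD library was above each WT library (log2 fold change 6.13, SE 1.68, limma adjusted p = 0.418), whereas Notch1+/- library 12 lay within the Notch1+/dTAD range (log2 fold change 4.79, SE 1.79, limma adjusted p = 0.932). Foxm1, a transcription factor of G2 and M phase genes, was listed at 31.3, 0.219, 0, 0, and 0 TPM in WT, at 0, 0, 147, 29.7, and 24.0 TPM in Notch1+/-, and at 72.6, 25.4, and 39.2 TPM in Notch1+/dTAD libraries. It was above 25 TPM in all Notch1+/dTAD libraries, and 1 WT and 2 Notch1+/- libraries lay in or above their range (Notch1+/dTAD against WT, log2 fold change 4.36, SE 1.84, limma adjusted p = 0.943). Prim2, the partner of Prim1 in primase, was listed at 158, 218, 582, 29.0, and 0 TPM in WT, at 0, 0, 0, 0, and 52.4 TPM in Notch1+/-, and at 0, 5.68, and 0.778 TPM in Notch1+/dTAD libraries. It was at 29.0 TPM or more in 4 of 5 WT libraries and in 1 of 8 libraries of the mutants. Its fold change was -4.65 in Notch1+/dTAD and -4.69 in Notch1+/- CLPs, against the same WT libraries, with limma adjusted p-values of 0.952 and 0.853. Cks2, which binds Cdk1, was listed at 90.2, 187, 26.2, 0, and 149 TPM in WT, at 0, 0, 0, 23.6, and 1.10 TPM in Notch1+/-, and at 694, 690.4, and 2.72 TPM in Notch1+/dTAD libraries. It was at 0 in 3 Notch1+/- libraries and above 690 TPM in Notch1+/dTAD libraries 7 and 9. Its difference in Notch1+/dTAD against Notch1+/- CLPs (log2 fold change 5.78, SE 2.12, limma adjusted p = 0.932) and that in Notch1+/- against WT CLPs (log2 fold change -4.07, SE 1.73, limma adjusted p = 0.887) did not pass the test. The remaining genes of these lists with an unadjusted p under 0.05 were Kif22 in Notch1+/- against WT and Orc2, Gins4, Rad51ap1, Dbf4, Cenpn, and Ckap2 between the mutants.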

How the data were processed

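RNA of sorted CLPs was measured by 3′ RNA-Seq in 13 mice of 3 genotypes, grouped by the sample labels. Reads were trimmed in FASTQ Toolkit by the authors and mapped to mm10 in RNA-Seq Alignment, which runs STAR. The authors deposited TPM in a pair of tables, and both hold the same WT columns. The annotation and tool behind the TPM are not given in the sources used here. Depth is unknown, so precision was judged from the spread between the libraries of different mice.

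For tests, log2(TPM + 1) values went into limma 3.58.1 in R 4.3.3 (lmFit, eBayes with trend, 2-sided, Benjamini-Hochberg over all genes tested, threshold 0.05). A gene was tested when the number of libraries with 1 TPM or more was at least the size of the smaller genotype. Fold changes are on the log2(TPM + 1) scale and understate those of low genes. The script was tested on simulated data. Gene positions are from GENCODE M21 on GRCm38, the build named mm10, and promoters from RefSeq GRCm38.p6.

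The 43 genes, the wider gene lists, and the tests were chosen with earlier results of these data known. Every value is given for genes among the 8 with the highest median TPM, at 1 TPM in at least 10 libraries, past an unadjusted p of 0.05, or without overlap between genotypes in a comparison, and for Mki67, Pcna, Top2a, Mcm2 to Mcm7, Cdk1, Ccnb1, and Ckap2l. For the wider lists, genes past an unadjusted p of 0.05 and the 3 with the highest median TPM are named. Alternatives were pseudocounts of 0.1 and 10, other filters, quantile normalization, median-ratio scaling, other eBayes settings, a term that separates libraries 1 to 9 from 10 to 14, 1 model of all libraries, summed TPM for the phases, and leaving out each library.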

Additional observations from a re-analysis of the deposited data

Results flagged for a closer look

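In each genotype with 5 libraries, the lowest or highest library was compared with its nearest neighbour by Dixon's criterion on log2(TPM + 1), for the library measures of these genes and for the 30 genes described by every value. Of 72 groups checked, 14 held a library that stood apart. The criterion's rate of 1 in 20, or 3.6, holds for independent values without a floor. Here many values are at 0 and the library measures contain the same genes, so 14 cannot be read against 3.6. WT library 11 stood low for the mean log2(TPM + 1) of all 43 genes (3.95) and of the S phase genes (3.79), and for Mcm2 (0.0 TPM), Mcm4 (0.0 TPM), and Mcm7 (147 TPM). Other low values were Mki67 in Notch1+/- library 6 (25.2 TPM), Birc5 in Notch1+/- library 5 (79.4 TPM), and Ube2c in WT library 2 (33.8 TPM). High values, above other libraries at or near 0, were Asf1b in Notch1+/- library 4 (0.559 TPM), Ccnb1 in WT library 10 (69.9 TPM), Bub1 (4.34 TPM) and Aurkb (15.0 TPM) in WT library 1, Plk1 in WT library 2 (89.0 TPM), and Cenpm in WT library 3 (74.8 TPM). The Asf1b value is within 1 TPM of the others and stands apart only because those are listed at 0.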

How the results depend on the processing

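No cell cycle gene passed an adjusted p of 0.05 in limma in any comparison or alternative, with a smallest adjusted p of 0.130 (Notch1+/- against WT). Over all genes, eBayes without the trend gave 15 genes for Notch1+/dTAD against WT, 2 for Notch1+/- against WT, and 3 between the mutants, in place of 0, and no cell cycle gene was among them. Of 208 alternative values for 12 results, 202 kept their call or moved by at most the SD of the reference genotype's libraries (WT, or Notch1+/- between the mutants). Of the other 6, 3 were these gene counts without the trend and 3 were differences of the S phase minus G2 and M phase level. As a log2 ratio of summed TPM it was -0.0766 in place of -1.16 for Notch1+/- against WT and -0.48 in place of 0.73 between the mutants, and with a pseudocount of 10 the latter was 0.26. Leaving out each library gave -1.42 to -0.99 for Notch1+/- against WT, 0.51 to 0.89 between the mutants, and -0.69 to -0.25 for Notch1+/dTAD against WT, and 0.80 to 1.10 for the difference of the mean level of all 43 genes between Notch1+/dTAD and WT. The difference of that mean level between Notch1+/- and WT, 0.09, took values from -0.16 to 0.27 without 1 library. Of the 208 values 88 were differences, of which 85 kept their sign, and the rest were counts, nearly all 0 in place of 0. A move within the SD can change a sign, and the WT SD of 0.64 exceeds the phase difference of -0.43 for Notch1+/dTAD against WT. The number of 202 thus says little about stability. No paired analysis was made because the sample labels give no pairing of the mice. Without counts, a TPM of 0 has no upper limit, and low genes are the least certain.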

Other observations

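Genes of G1 and of cell cycle entry and exit were outside the comparisons above. Of 26 such genes, Cdkn1c and Cdkn2a, inhibitors of cyclin-dependent kinases, were listed at 0 in all 13 libraries. The highest medians were those of the D cyclins Ccnd2 (190 TPM, 73.0 to 317) and Ccnd3 (155 TPM, 5.61 to 297) and of the inhibitor Cdkn1a (140 TPM, 0 to 302). In Notch1+/dTAD against WT CLPs 11 of 17 tested genes, or 64.7%, had a higher fold change (all genes, 61.8%), in Notch1+/- against WT CLPs 3 of 14, or 21.4% (all genes, 51.4%), and between the mutants 14 of 22, or 63.6% (all genes, 58.9%). No gene had an adjusted p under 0.05 in limma. Cdkn2d, which encodes the Cdk4 and Cdk6 inhibitor p19, was listed at 0, 64.9, 0, 0, and 0 TPM in WT, at 0, 0, 0, 0, and 0.871 TPM in Notch1+/-, and at 147, 242, and 16.7 TPM in Notch1+/dTAD libraries. Each Notch1+/dTAD library was above each Notch1+/- library (log2 fold change 6.24, SE 1.74, limma adjusted p = 0.642), whereas WT library 2 lay within the Notch1+/dTAD range (log2 fold change 5.22, SE 2.05, limma adjusted p = 0.913).

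Of the wider lists, the tubulin genes stood highest, with medians of 5702 TPM for Tuba1b, 984 TPM for Tubb5, and 528 TPM for Tubb4b, and all 3 were above 0 in every library. Among other S phase genes the highest medians were 414 TPM for Rpa2, a subunit of the single-strand DNA binding protein RPA, 191 TPM for Nme1, a nucleoside diphosphate kinase, and 158 TPM for Dnmt1, the maintenance DNA methyltransferase. Rpa2 ranged from 0 in Notch1+/- library 5 to 1979 TPM in Notch1+/- library 6. Dnmt1 was above 0 in all 13 libraries and ranged from 33.8 TPM in WT library 11 to 272 TPM in Notch1+/- library 4.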
